A study of Rattus norvegicus with 6 samples.

Results

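The genes of cell adhesion at the intercalated disc were followed in the rat heart primordium before and after heartbeat initiation. They were 10 genes, the classical cadherins Cdh2 and Cdh1, the desmosomal cadherins Dsg2 and Dsc2, the desmosomal linker Dsp, the armadillo proteins Pkp2 and Jup, the alpha-catenins Ctnna1 and Ctnna3, and the actin linker Vcl. They were chosen by name, and every probe that the array assigned to these names was taken, which gave 12 of 30367 probes. Of the 12 probes, 11 were among the 19299 probes that could be tested, those well above background throughout the 3 arrays of a group.

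Global gene expression had been measured on embryonic day 10 in Wister rats (the spelling of the labels). The pre-heartbeat group was 3 samples of primordia that were flat in the center, and the post-heartbeat group 3 samples that were raised there. No treatment or genetic change was given for either group, and the heart fields were not separated from each other. The samples were described as biological replicates, each on its own 1-color array, and whether primordia were pooled for an array is not given in the sources used here. The tissue was whole primordium, so fewer cells of a type and less RNA per cell cannot be told apart.

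The intercalated disc is the end-to-end contact of heart muscle cells. In its adherens junctions N-cadherin is tied through catenins and vinculin to actin, in its desmosomes desmogleins and desmocollins are tied through plakoglobin, plakophilin and desmoplakin to intermediate filaments, and in the mature heart both kinds of junction mix. The disc forms late in development, and in the early tube the same proteins sit along the cell borders of a young epithelium-like muscle layer, while E-cadherin belongs to epithelia such as endoderm and surface ectoderm.

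Values are log2 signals from which the 75th percentile of their array was subtracted, so that 0 is the signal that 75% of the spots of the array do not exceed. Samples are given in the order of their replicate numbers. The arrays lay on 2 slides, with replicate 1 of either group and post-heartbeat replicate 2 on slide 1, and the other 3 arrays on slide 2. The first principal component (60.3% of the variance) followed the slides and the next one (16.6%) the groups, and 16.3% of the tested probes differed between the slides at an adjusted p under 0.05. The members are therefore also given with the slide as a term of the linear model (slide blocking) and within each slide. A difference within a slide has a single array on one side, pre-heartbeat replicate 1 on slide 1 and post-heartbeat replicate 3 on slide 2. Markers of cardiac muscle were present in all samples, as all 10 were well above background on every array, with Tnnt2, the cardiac troponin T, between 6.32 and 7.34.

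The probe sequences below are shown because the results for the alpha-catenins, vinculin and desmoplakin turn on single probes. They are printed 5′ to 3′ in lower case, as given with the array, and each has at least 1 reading frame without a stop codon. Genome positions follow the array's own rn4 annotation, which gives no exon or untranslated region. The first Ctnna3 probe lies at chr20:26268567-26268626 and the second at chr20:26697652-26697711, both on the plus strand. The Ctnna1 probe lies at chr18:27768381-27768440 on the plus strand, the second Vcl probe at chr15:3480198-3480257 on the minus strand, and the Dsp probe at chr17:32848997-32849056 on the minus strand.
Ctnna3 probe 1: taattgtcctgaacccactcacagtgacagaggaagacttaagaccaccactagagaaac
Ctnna3 probe 2: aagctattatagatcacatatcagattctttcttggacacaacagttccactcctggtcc
Ctnna1: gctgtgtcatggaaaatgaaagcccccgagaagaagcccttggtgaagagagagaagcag
Vcl probe 2: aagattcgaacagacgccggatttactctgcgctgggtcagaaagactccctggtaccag
Dsp: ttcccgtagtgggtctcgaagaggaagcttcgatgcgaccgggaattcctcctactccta

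Between the groups, 0 of the 10 members passed the limma threshold of an adjusted p under 0.05, against 0.119% of all tested probes called higher after heartbeat initiation and 0.0207% called lower. At an unadjusted p under 0.05 there were 2 members, Cdh1 and Ctnna3, against 7.01% of all tested probes, and with slide blocking there were 3, Dsc2 added, against 9.66%. With slide blocking, 1 of the 10 members, Ctnna3, was called higher and 0 were called lower, against 1.16% and 0.461% of all tested probes. The methods' t-test with Benjamini-Hochberg adjustment called 0 members. The selection of the methods is a change of 1.5 fold with an unadjusted p under 0.05, which the authors applied to higher genes only. Extended here to lower ones, it took 1.89% of the probes as higher and 1.15% as lower, and 0 members met it.

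The members leaned to higher values after heartbeat initiation, with Cdh1 as the exception. The log2 fold change was above 0 for 8 of 10 members without a block and for 9 of 10 with slide blocking, against 44.7% and 45.8% of all tested probes. Their median log2 fold change was 0.20 without a block and 0.31 with it, against -0.03 and -0.02 over all tested probes. Within both slides 9 members were higher and 1 was lower, against 24.7% and 25.2% of all tested probes. All members share the same arrays, and each slide holds a single array of one group. These counts are therefore descriptions and carry no test.

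**Figure D1:**
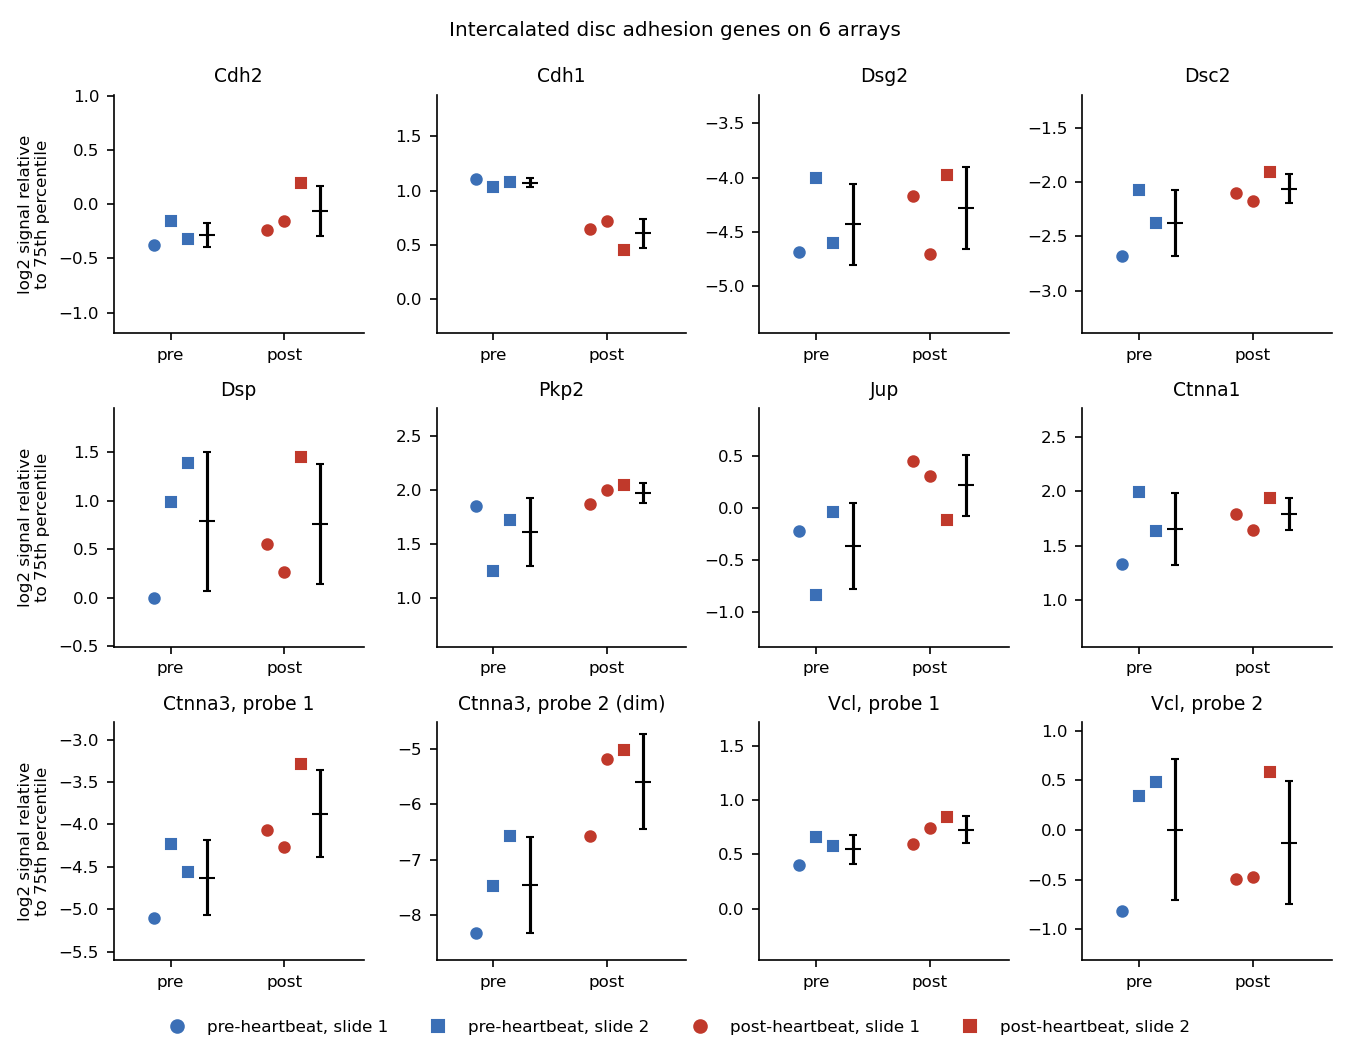
Log2 signal relative to the array's 75th percentile (y axis) of all 12 member probes in the pre- and post-heartbeat groups (x axis), with 1 point per array, circles for slide 1, squares for slide 2, and the mean ± SD of 3 arrays as a bar. The y axes differ between panels but span at least 2.2 log2 units. The groups separated for Cdh1, Pkp2 and the dim second probe of Ctnna3, whereas Dsp and the second Vcl probe separated the slides.

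Cdh2 encodes N-cadherin, the classical cadherin of cardiomyocyte adherens junctions, and was measured with 10 spots per array at chr18:8049328-8049387. Its level was -0.38, -0.16 and -0.32 in the pre-heartbeat group and -0.24, -0.15 and 0.19 in the post-heartbeat group. The highest value was that of post-heartbeat replicate 3, and the groups overlapped by a narrow margin. The means were -0.28 ± 0.11 and -0.06 ± 0.23 (SD, n = 3), and the log2 fold change was 0.22 ± 0.17 (SE, limma adjusted p = 0.866). With slide blocking it was 0.31 ± 0.14 (adjusted p = 0.545), and it was 0.19 within slide 1 and 0.43 within slide 2.

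Cdh1 encodes E-cadherin, the classical cadherin of epithelia, and its probe lies at chr19:36511853-36511912. Its level was 1.11, 1.03 and 1.08 in the pre-heartbeat group and 0.64, 0.72 and 0.45 in the post-heartbeat group. The 3 pre-heartbeat values lay close together and above all 3 post-heartbeat values, on both slides. The means were 1.07 ± 0.04 and 0.60 ± 0.14 (SD, n = 3), a level 1.39-fold higher before heartbeat initiation. The log2 fold change was -0.47 ± 0.14 (SE, limma adjusted p = 0.372, unadjusted p = 0.0110), and with slide blocking it was -0.52 ± 0.13 (adjusted p = 0.136). It was -0.43 within slide 1 and -0.60 within slide 2. The two-sided exact permutation test gave p = 0.10, the smallest value that 3 arrays against 3 allow. Groups that did not overlap in this direction were found for 6.14% of all tested probes.

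The change of Cdh2 and that of Cdh1 were compared within each array, since both come from the same RNA. The log2 difference Cdh2 minus Cdh1 was -1.49, -1.19 and -1.40 before and -0.88, -0.87 and -0.26 after heartbeat initiation. Every post-heartbeat array was above every pre-heartbeat array. The group means of this difference lay 0.69 ± 0.22 (SE) apart on the log2 scale, with an exact permutation p = 0.10 and an adjusted p = 0.20 over the 4 pairs compared, which is not past the threshold and could not have been with 3 arrays a group. It was 0.62 within slide 1 and 1.03 within slide 2.

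**Figure D2:**
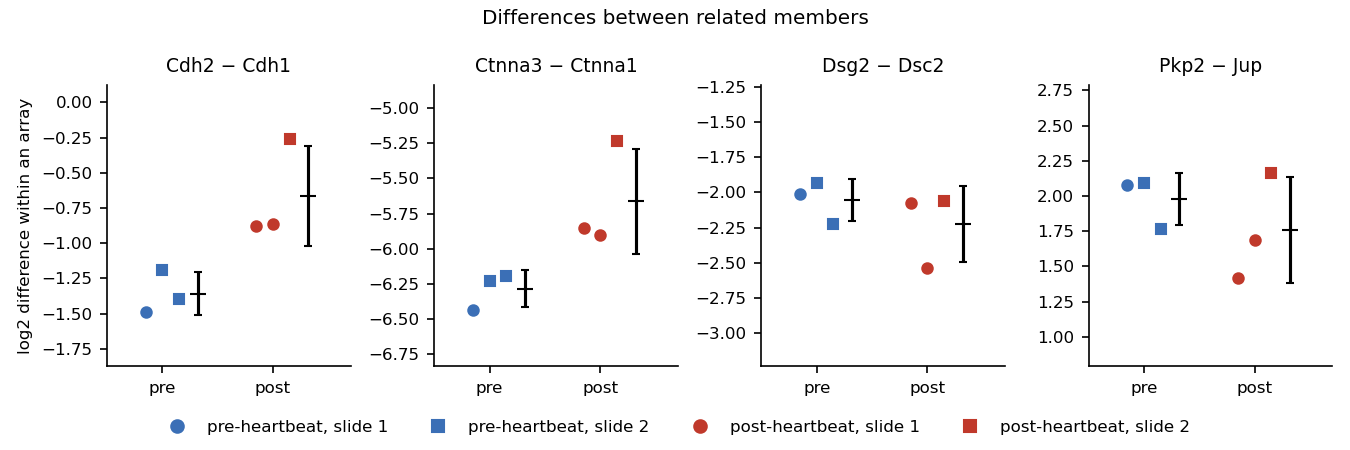
Log2 difference between 2 members on the same array (y axis) in the pre- and post-heartbeat groups (x axis), with 1 point per array, circles for slide 1, squares for slide 2, and the mean ± SD of 3 arrays as a bar. Only changes between groups are comparable, since the height of a difference depends on the probes. The groups separated for Cdh2 minus Cdh1 and for Ctnna3 minus Ctnna1, and overlapped for Dsg2 minus Dsc2 and for Pkp2 minus Jup.

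Epithelial markers are given beside Cdh1, as E-cadherin is an epithelial gene. Of 12 such genes, 11 were tested and 0 were called, with or without slide blocking. Their log2 fold change was below 0 for 8 of 11, with a median of -0.15 (-0.30 with slide blocking). It was above 0 for Cldn4 (0.27), Esrp2 (0.22) and St14 (0.04). Of all tested probes, 44.7% were above 0, and their median was -0.03 (-0.02 with slide blocking). Groups did not overlap for Epcam, an epithelial adhesion molecule (log2 fold change -0.42), Esrp1, a splicing regulator of epithelia (-0.50), and Grhl2, a transcription factor of epithelial junction genes (-0.73 ± 0.21, adjusted p = 0.355), all 3 lower after heartbeat initiation. Over all tested probes, 6.14% did not overlap in this direction. The mean level of the 11 genes on an array was between -1.08 and -0.93 before and between -1.39 and -1.02 after heartbeat initiation. Endoderm markers were below 0 in 4 of 5 tested genes of the foregut list (median -0.14) and 5 of 7 of the yolk sac list (median -0.23). With slide blocking they were below 0 in 3 of 5 (median -0.24) and 7 of 7 (median -0.53). The part of these cell types in the lower Cdh1 level was not tested.

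**Figure D3:**
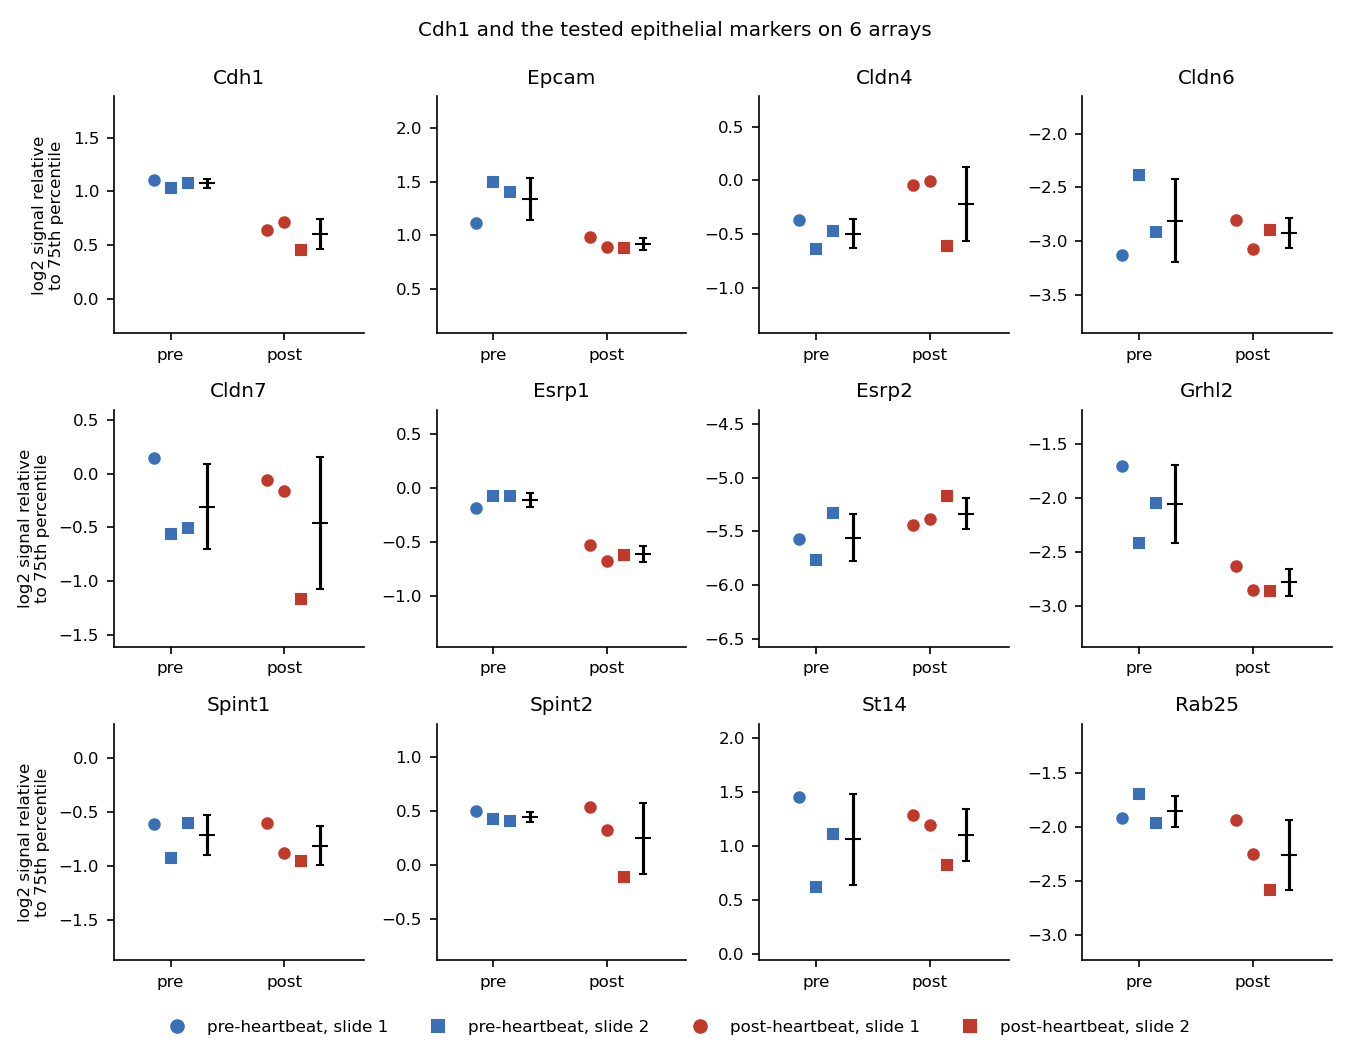
Log2 signal relative to the array's 75th percentile (y axis) of Cdh1 and the 11 tested epithelial markers in the pre- and post-heartbeat groups (x axis), with 1 point per array, circles for slide 1, squares for slide 2, and the mean ± SD of 3 arrays as a bar. The groups did not overlap for Cdh1, Epcam, Esrp1 and Grhl2, and overlapped for the other 8 markers.

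The desmosomal cadherins Dsg2 (desmoglein 2) and Dsc2 (desmocollin 2) form the extracellular contact of the cardiac desmosome. Their probes lie on the same chromosome, Dsg2 at chr18:12364279-12364338 and Dsc2 at chr18:11902165-11902176, where the annotation places 12 of the 60 bases, with 462102 bases between them. Dsg2 was dim, with levels of -4.69, -4.00 and -4.60 before and -4.17, -4.70 and -3.97 after heartbeat initiation. The lowest and the highest Dsg2 value both came from the post-heartbeat group. Its log2 fold change was 0.15 ± 0.26 (SE, adjusted p = 0.881) and 0.29 ± 0.21 with slide blocking (adjusted p = 0.881), with 0.25 within slide 1 and 0.33 within slide 2.

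Dsc2 was at -2.68, -2.07 and -2.38 before and at -2.10, -2.17 and -1.91 after heartbeat initiation. Only pre-heartbeat replicate 2 reached the post-heartbeat values. This was a log2 fold change of 0.32 ± 0.19 (SE, adjusted p = 0.866), and with slide blocking it was 0.43 ± 0.15 (adjusted p = 0.333), with 0.55 within slide 1 and 0.31 within slide 2. The change of Dsg2 minus that of Dsc2 was -0.17 ± 0.18 (SE), with an exact permutation p = 0.50, and it was -0.29 within slide 1 and 0.02 within slide 2.

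Dsp encodes desmoplakin, which anchors intermediate filaments to the desmosome. Its level was -0.01, 0.99 and 1.38 in the pre-heartbeat group and 0.55, 0.26 and 1.45 in the post-heartbeat group. The 3 arrays of slide 2 were all above the 3 arrays of slide 1, and the groups overlapped over most of their range. The log2 fold change was -0.03 ± 0.43 (SE, adjusted p = 0.986) and turned to 0.34 ± 0.17 with slide blocking (adjusted p = 0.613), with 0.42 within slide 1 and 0.27 within slide 2. The difference between the slides itself was 1.12 on the log2 scale (adjusted p = 0.00551).

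Pkp2 encodes plakophilin 2, an armadillo protein that binds desmoplakin to the desmosomal cadherins, and its probe lies at chr11:86584291-86584350. Its level was 1.85, 1.25 and 1.73 before and 1.87, 2.0 and 2.05 after heartbeat initiation. The groups did not overlap, but post-heartbeat replicate 1 was above pre-heartbeat replicate 1 by a margin far smaller than the spread of the pre-heartbeat group. Groups that did not overlap in this direction were found for 5.38% of all tested probes. Between the group means the log2 fold change was 0.36 ± 0.19 (SE, adjusted p = 0.854, exact permutation p = 0.10), and with slide blocking it was 0.32 ± 0.18 (adjusted p = 0.738). It was 0.08 within slide 1 and 0.56 within slide 2.

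Jup encodes plakoglobin, the armadillo protein found in both desmosomes and adherens junctions, and its probe lies at chr10:89308299-89308358. Its level was -0.23, -0.84 and -0.04 before and 0.45, 0.31 and -0.11 after heartbeat initiation. Post-heartbeat replicates 1 and 2 were above all pre-heartbeat arrays, and post-heartbeat replicate 3 was not. It corresponded to a log2 fold change of 0.58 ± 0.25 (SE, adjusted p = 0.737), and with slide blocking it was 0.47 ± 0.22 (adjusted p = 0.585), with 0.61 within slide 1 and 0.33 within slide 2. The change of Pkp2 minus that of Jup was -0.22 ± 0.24 (SE, exact permutation p = 0.50) and differed in direction between the slides, with -0.52 within slide 1 and 0.23 within slide 2.

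Ctnna1 encodes alpha-E-catenin, the widely expressed protein that ties the cadherin complex to actin. Its level was 1.33, 2.0 and 1.64 before and 1.79, 1.64 and 1.94 after heartbeat initiation, and both ends of the range lay in the pre-heartbeat group. The log2 fold change was 0.14 ± 0.20 (SE, adjusted p = 0.869), and with slide blocking it was 0.25 ± 0.16 (adjusted p = 0.790), with 0.38 within slide 1 and 0.13 within slide 2.

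Ctnna3 encodes alpha-T-catenin, the alpha-catenin enriched in heart muscle, which also binds plakophilins at the disc. Its first probe, with 1 spot per array, read -5.10, -4.23 and -4.56 before and -4.06, -4.26 and -3.29 after heartbeat initiation. Post-heartbeat replicate 3 was the highest, pre-heartbeat replicate 1 the lowest, and the groups overlapped only at pre-heartbeat replicate 2 and post-heartbeat replicate 2. In limma the log2 fold change was 0.76 ± 0.32 (SE, adjusted p = 0.712, unadjusted p = 0.0494). With slide blocking Ctnna3 rose by 1.02 ± 0.15 on the log2 scale, or 2.03 fold (adjusted p = 0.0236), and the difference was 0.94 within slide 1 and 1.1 within slide 2. This was the largest rise among the members, and slide 2 was itself above slide 1 by 0.79 (adjusted p = 0.0145).

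With slide blocking the Ctnna3 call was lost without pre-heartbeat replicate 1 (adjusted p = 0.247), post-heartbeat replicate 1 (0.0686) or post-heartbeat replicate 3 (0.311). The log2 fold change was then between 0.94 and 1.1, but both ends of this range repeat the values within a slide. Without pre-heartbeat replicate 1 the fit drew on slide 2 alone, and without post-heartbeat replicate 3 on slide 1 alone. The call was also lost after normexp background correction, where the log2 fold change was 0.52 (adjusted p = 0.101). Both of these alternatives were chosen after the values had been seen.

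The second Ctnna3 probe was well above background on 0 of 3 pre-heartbeat arrays and 2 of 3 post-heartbeat arrays and was not tested. It read -8.33, -7.48 and -6.57 before and -6.57, -5.18 and -5.01 after heartbeat initiation, where post-heartbeat replicate 1 was barely above pre-heartbeat replicate 3. Pre-heartbeat signals below the lowest one well above background on their array were then raised to it, which left the level 2.46-fold higher after heartbeat initiation. This value is not a strict bound, since its post-heartbeat mean takes in all 3 arrays and only 2 of them were well above background.

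The change of Ctnna3 was compared with that of Ctnna1 within arrays. The log2 difference Ctnna3 minus Ctnna1 was -6.44, -6.23 and -6.19 before and -5.85, -5.90 and -5.23 after heartbeat initiation, and the groups did not overlap. It differed by 0.62 ± 0.23 (SE, exact permutation p = 0.10, adjusted p = 0.20), with 0.56 within slide 1 and 0.98 within slide 2.

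Vcl encodes vinculin, which is recruited to alpha-catenin and strengthens its link to actin. Its first probe, with 10 spots per array at chr15:3478800-3478859 on the minus strand, read 0.40, 0.66 and 0.58 before and 0.59, 0.75 and 0.84 after heartbeat initiation. The fit gave a log2 fold change of 0.18 ± 0.15 (SE, adjusted p = 0.866) and 0.24 ± 0.13 with slide blocking (adjusted p = 0.692), with 0.27 within slide 1 and 0.22 within slide 2. The second probe, separated from the first by 1338 bases on the 5′ side, read -0.81, 0.34 and 0.48 before and -0.50, -0.47 and 0.59 after heartbeat initiation. As for Dsp, all 3 arrays of slide 2 were above all 3 arrays of slide 1, by 1.15 on the log2 scale (adjusted p = 0.00209). The probes therefore differed in sign without a block, the second at -0.13 ± 0.43 (adjusted p = 0.939), and lay side by side with it, the second at 0.25 ± 0.13 (adjusted p = 0.668), with 0.33 within slide 1 and 0.17 within slide 2.

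**Figure D4:**
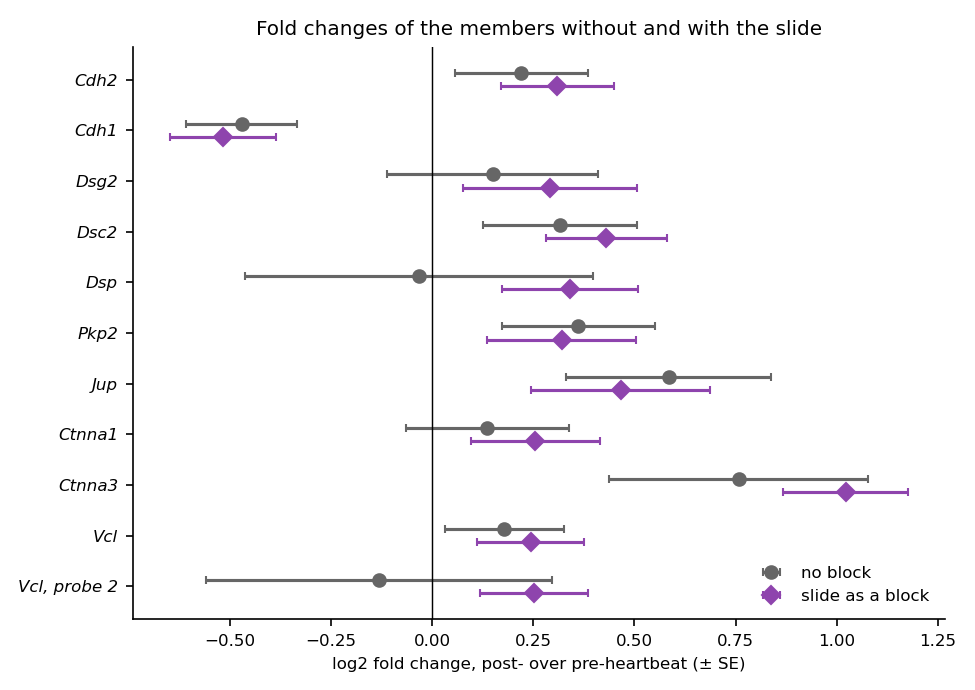
Log2 fold change of the post- over the pre-heartbeat group (x axis, with SE bars) for the 11 tested member probes (y axis), from limma without a block (grey circles) and with slide blocking (purple diamonds). Cdh1 is the probe below 0 in both fits, Dsp and the second Vcl probe change sign, and Ctnna3 with slide blocking lies farthest above 0.

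Of the 11 tested member probes, 3 (Ctnna3, Dsp and the second Vcl probe) were higher on slide 2 at an adjusted p under 0.05 and 0 were lower, against 7.57% and 8.75% of all tested probes. On rn4, 4 of the 10 members (Cdh2, Dsg2, Dsc2 and Ctnna1) lie on chromosome 18, which holds 2.43% of the tested probes with a position. As the members were chosen by name, this share carries no test. Their log2 fold changes with slide blocking were between 0.25 and 0.43. Members on other chromosomes lay in or near this range too (Vcl 0.24, Pkp2 0.32, Dsp 0.34, Jup 0.47), apart from Ctnna3 (1.02) and Cdh1 (-0.52).

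The genes most like Cdh2 over the 6 arrays, by Pearson's r among 11160 genes, were Chmp4bl1 (0.995), Npr3 (0.990) and Ddhd2 (0.981), and 0 of these 3 were called in either fit. Those most like Cdh1 were Pla2g10 (0.995), Slc22a18 (0.983) and Fabp5 (0.979). Pla2g10, a secreted phospholipase, was at -1.88, -2.03 and -1.76 before and -2.96, -2.81 and -3.40 after heartbeat initiation. It fell by 1.26 on the log2 scale with slide blocking (adjusted p = 0.0179). Without a block the log2 fold change was -1.17, which did not pass the threshold (adjusted p = 0.0999). With 6 arrays and that many genes, these values only describe which patterns are close, and the points share slide and group.

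The other genes of the disc and of cadherin adhesion were taken as 6 lists of 70 genes, of which 65 were on the array and 51 were tested. Without a block limma called 0 of the 51, and 13 had an unadjusted p under 0.05, against 7.01% of all tested probes. With slide blocking 2 were called higher and 3 lower, against 1.16% and 0.461%. Their median log2 fold change was 0.09 without a block and 0.10 with it.

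Both partners called higher with slide blocking are muscle genes. Des, the desmin of the intermediate filaments that desmoplakin anchors, was at 0.59, -0.04 and 0.45 before and 1.74, 1.64 and 1.14 after heartbeat initiation and rose with slide blocking by 1.01 ± 0.17 (adjusted p = 0.0324). Lrrc10, a heart-specific leucine-rich repeat protein, rose by 1.09 ± 0.15 (adjusted p = 0.0178). Without a block their adjusted p values were 0.163 and 0.115.

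Of the 3 called lower, Gja1, the connexin 43 of gap junctions, was at 2.23, 2.21 and 2.04 before and 1.41, 1.30 and 1.32 after heartbeat initiation. The spread within each group was small beside the gap between them. Gja1 fell by 0.84 ± 0.13 on the log2 scale with slide blocking (adjusted p = 0.0284), and the log2 fold change was -0.81 without it (adjusted p = 0.0999). Cdh11, a mesenchymal cadherin, fell by 1.15 ± 0.18 (adjusted p = 0.0290), from between -4.69 and -3.97 before to between -5.72 and -4.81 after. Nectin4, listed on the array as Pvrl4, fell by 0.96 ± 0.18 and lay at the threshold itself (adjusted p = 0.04998). Both Cdh11 and Nectin4 were dim. Without a block, normexp background correction took the log2 fold change of Cdh11 from -0.94 to -0.48 and that of Nectin4 from -0.79 to -0.40. That of Gja1 stayed at -0.81.

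The selection of the methods, extended to lower values, held 8 of the 51 partners, 4 higher and 4 lower, against 1.89% and 1.15% of all tested probes. Beside Des, Lrrc10, Gja1 and Cdh11 these were Cdh13, a cadherin held by a membrane anchor (0.63), Fhl2, a LIM protein of muscle (0.63), Ctnna2, the alpha-catenin of neural tissue (-0.88), and Ank2, an ankyrin. Ank2 was well above background on 3 of 3 pre-heartbeat and 0 of 3 post-heartbeat arrays, with a log2 fold change of -1.78 (limma adjusted p = 0.329). Post-heartbeat signals below the lowest one well above background on their array were then raised to it, which left Ank2 2.46-fold lower. After normexp background correction the log2 fold change of Ank2 was only -0.48 (limma adjusted p = 0.951). It was then 0.34 for Cdh13, which was dim, 0.60 for Fhl2 and -0.64 for Ctnna2. None of the 4 passed the limma threshold with or without slide blocking.

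By group, the disc scaffolds had 7 of 12 tested genes above 0 (median 0.21), the linkers to actin and intermediate filaments 10 of 17 (0.10), the other cadherins 3 of 6 (-0.01), the catenins and armadillo proteins 4 of 8 (-0.14), the nectins and afadin 1 of 4 (-0.13), and the gap junction partners 3 of 4 (0.20). With slide blocking the medians were, in the same order, 0.33, 0.10, 0.07, 0.02, -0.03 and 0.21. Those of the other cadherins and of the catenins thus turned from below to above 0. Of all tested probes, 44.7% were above 0 without a block, and their median was -0.03 (-0.02 with slide blocking). The 8 tested partners of the catenin list included Ctnnb1, beta-catenin, at 0.04 ± 0.22 (SE, adjusted p = 0.967), and Ctnnd1, p120-catenin, at -0.31 ± 0.31 (adjusted p = 0.866).

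**Figure D5:**
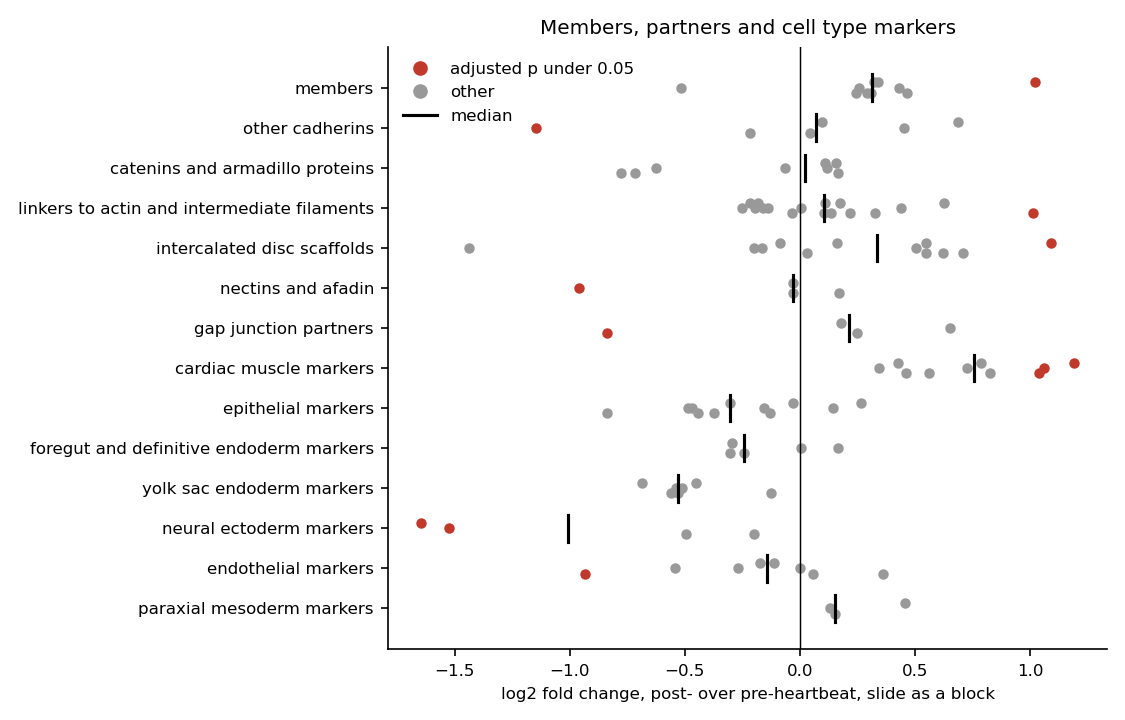
Log2 fold change of the post- over the pre-heartbeat group with slide blocking (x axis) for the tested genes of each list (y axis), with 1 point per gene, red where the limma adjusted p was under 0.05, and the median of the list as a black line. The members have a median of 0.31 with Ctnna3 called, the cardiac muscle markers lie above 0 in 10 of 10 genes, and the neural ectoderm markers, with Otx2 and Hesx1 called, have the lowest median.

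Marker lists of cardiac muscle and of other cell types are given beside these values. Their counts stand against 44.7% of all tested probes above 0 without a block and 45.8% with slide blocking. All 10 cardiac muscle markers were above 0 (median 0.65, 0.76 with slide blocking), with 0 called without a block and 3 with it, the myosin chains Myh6 (1.06), Myh7 (1.19) and Myl4 (1.04). The mean level of the 10 genes was between 4.28 and 4.66 before and between 5.16 and 5.24 after heartbeat initiation, and the selection of the methods also held Tnni1 (0.73) and Tnnc1 (0.63). Of the neural ectoderm list 4 of 8 genes were tested and 0 of them were above 0. Otx2, a transcription factor of the anterior ectoderm and endoderm, fell by 1.56 ± 0.14 without a block (adjusted p = 0.0199), and Hesx1 fell by 1.65 ± 0.22 with slide blocking (adjusted p = 0.0171). The endothelial list had 7 of 8 genes below 0 (median -0.21), but 5 of 8 with slide blocking (median -0.14), with Cldn5 called lower with slide blocking (-0.93, adjusted p = 0.0425), and 3 of 3 tested paraxial mesoderm genes were above 0 (median 0.19, 0.15 with slide blocking). The part of these differences in the values of the adhesion genes was not tested.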

How the data were processed

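RNA of 3 pre-heartbeat and 3 post-heartbeat samples was measured on 1-color Agilent rat arrays that the authors quantified with Agilent Feature Extraction 10.7.3.1. The values used are the deposited processed signal of each spot, an intensity with the background subtracted by the authors and no normalization between arrays. A table of linear ratios that the authors deposited as well, made by a 75th percentile shift and a baseline per probe, served as an alternative. Its log2 differences between arrays were compared with those of the processed signal after a constant shift of each array was removed. They then matched within 0.01 for 100% of the probes. The median log2 ratio of a column was between -0.10 and 0.14, and the baseline is unknown and cancels between groups.

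Control spots and spots marked as outliers were left out, the 75th percentile of each array (between 1145.76 and 1701.98 intensity units) was subtracted on the log2 scale, and spots of the same probe were averaged. A probe counted as well above background where at least 50% of its spots did. In all, 0 spots were saturated. Of 30367 probes, 18006 matched a current symbol in RefSeq's GRCr8 table, which served for names only, and of the 19299 tested probes 2 had a missing value. The number of arrays limits the precision. Replicates are the samples that the labels number, and p-values measure the spread between these samples.

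Groups were compared with limma 3.58.1 in R 4.3.3 (lmFit and eBayes) with Benjamini-Hochberg adjustment over all tested probes and a threshold of 0.05, without a covariate as in the methods, and with slide blocking beside it. SE are the moderated ones. Where a gene had several probes, its brightest tested probe stood for it. Exact permutation tests used the 10 distinct splits of 6 arrays. Alternatives were the replicate number as a block, normexp with an offset of 50, quantile normalization, other filters and percentiles, the ratios, the methods' t-test, an intensity trend, the mean over a gene's probes, and leaving out each array. Named genes were all members, list genes past the limma threshold in either fit or in the selection of the methods, Gja1, and the 3 genes closest to Cdh2 and to Cdh1, with up to 4 further list genes. Of the lists, 1 gene is not reported here. The members and lists were chosen with earlier results of these data known. Genes named outside this rule, such as Tnnt2, Epcam, Esrp1, Cldn4, Esrp2, St14, Ctnnb1 and Ctnnd1, were chosen after their values were seen. The fitting procedure was tested on simulated data. Figures were drawn with matplotlib 3.10.9.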

Additional observations from a re-analysis of the deposited data

How the results depend on the processing

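Over all tested probes, 23 were called higher and 4 lower without a block. These counts were 223 and 89 with slide blocking, 43 and 7 with normexp, 38 and 7 with an intensity trend, and 1 and 0 with no filter. Higher calls numbered 11 with quantile normalization, 12 with the 75th percentile over detected probes and 10 with the ratios of the authors. The methods' t-test with Benjamini-Hochberg adjustment gave 0 and 0, and its unadjusted selection gave 365 and 222. Leaving out 1 array gave 0 to 1 higher and 0 to 1 lower.

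Whether the replicate numbers pair the samples cannot be told from these values. The deviations of same-numbered arrays from their group means correlated at 0.648, -0.277 and 0.494. Those of arrays with unlike numbers correlated between -0.728 and 0.5. The correlation was above 0 wherever both arrays shared a slide and below 0 elsewhere, so it reads the slide. The replicate block gave 95 higher and 49 lower calls, 0 members and 0 partner genes, and the log2 fold change of each member kept its value.

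The count of members called was 1 with slide blocking, against 0 without, and 0 under every other alternative that changed 1 choice, leaving out each array included. Leaving out each array with slide blocking gave 0 to 1 members, and normexp with slide blocking gave 0. The count of partner genes called was 5 with slide blocking, against 0 without, and 8 in the selection of the methods.

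Direction turned for Dsp with slide blocking (0.34) and without pre-heartbeat replicate 2 (0.07), pre-heartbeat replicate 3 (0.27), post-heartbeat replicate 1 (0.07) or post-heartbeat replicate 2 (0.21), for Dsg2 without post-heartbeat replicate 3 (-0.0048) and for Ctnna1 without pre-heartbeat replicate 1 (-0.026). Without 1 array Dsp lay between -0.43 and 0.27, Dsg2 between -0.0048 and 0.36 and Ctnna1 between -0.026 and 0.31. For Ctnna3 the log2 fold change was between 0.36 and 1.02 over the alternatives with all arrays and between 0.47 and 0.96 without 1 array. For Cdh1 it was between -0.53 and -0.39 without 1 array, with adjusted p between 0.136 and 0.999 over the limma alternatives. Differences in change moved within slide 2 to 1.03 for Cdh2 minus Cdh1 and 0.98 for Ctnna3 minus Ctnna1, and to 0.016 for Dsg2 minus Dsc2, and for Pkp2 minus Jup they were -0.52 within slide 1 and 0.23 within slide 2. Without 1 array they lay between 0.49 and 0.80, 0.41 and 0.74, -0.25 and -0.01, and -0.43 and -0.05. The cause of these moves was not tested. Dim probes such as those of Ctnna3 and Dsg2 lie close to background, which limits their precision.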

Other observations

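Repressors of E-cadherin were looked at after the values of Cdh1 had been seen, with no test beyond the fit over all probes. Snai2 was at -3.33, -3.24 and -2.87 before and -4.88, -4.63 and -4.06 after heartbeat initiation, and fell by 1.21 on the log2 scale with slide blocking (adjusted p = 0.0216), against -1.37 without it (adjusted p = 0.116). Zeb2 was at -1.23, -1.01 and -1.19 before and -2.68, -1.95 and -1.63 after, with no overlap of the groups and a log2 fold change of -0.94 (adjusted p = 0.356, 0.182 with slide blocking). Snai1 (0.04), Zeb1 (-0.14) and Twist1 (-0.08) had log2 fold changes with adjusted p values between 0.866 and 0.984. With slide blocking these were -0.34, -0.08 and -0.57, with limma adjusted p values between 0.695 and 0.9997. After normexp background correction without a block, the log2 fold change was -0.81 for both Snai2 (limma adjusted p = 0.0977) and Zeb2 (0.334). Snai2 and Cdh1 were both at lower values after heartbeat initiation, but Cdh1 was not called in either fit. Their relation was not tested.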
